A study of Mus musculus with 6 samples.

Results

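A set of 35 genes that are raised in activated or disease-associated microglia was followed in cortical RNA of mice labelled wild type or Gtf2ird1 knockout. The genes were taken from a list of symbols, with no threshold on their values here, and all 35 matched an identifier among the 53379 genes counted. The study compared 3 libraries labelled wild type (replicates 1, 3 and 4) with 3 labelled GTF2ird1-/- (replicates 5, 6 and 7), each of cerebral cortex from mice of strain C57BL/6 at 2 months of age. Gad2+ neurons are named in the title of the series, and the labels name no Cre line, reporter, sort or other agent. The sources used here do not give the mutated part of Gtf2ird1, the origin of the line or the number of animals behind a library. The p-values therefore measure only the spread between these libraries, which may be technical.

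Microglia are the resident macrophages of the brain. In healthy cortex they express a homeostatic programme that includes P2ry12, Tmem119 and Cx3cr1. Near amyloid plaques, dying neurons or damaged myelin they turn on the disease-associated programme, which depends in large part on the lipid receptor TREM2 and its adaptor TYROBP and brings up genes for lipoproteins and lipid storage, lysosomal proteins, phagocytic receptors, galectins and growth factors. Many of the same genes are used by border macrophages, monocytes or astrocytes, so in RNA from mixed cells their level is not specific to a microglial state.

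Levels are given as CPM, counts per 1000000 reads in genes after TMM scaling between libraries, in the order of replicates 1, 3 and 4 (wild type) and 5, 6 and 7 (knockout). The libraries held between 13627501 and 30544144 gene counts. A gene with no read could still lie at up to 0.0982 to 0.22 CPM (3 counts, counting error only), taken on library totals before TMM scaling. Microglial markers far exceeded neuronal ones in every library. The summed level of 18 homeostatic markers lay between 36750 and 60860 CPM, against 188.6 to 829.2 CPM for 6 GABAergic neuron markers, the cells named in the title. The targeted gene, Gtf2ird1, averaged 35.9 ± 15.1 CPM in wild type against 46.4 ± 4.99 CPM under the knockout label (SD, n = 3 each; exact permutation test, two-sided p = 0.4, with 0.1 the smallest value possible), so it was not lower under the knockout label. The count covers all exons and the deleted part is not known here, so this level does not check the labels, and "knockout" below stands for the libraries labelled so. Ribosomal RNA took 17.5% of gene counts in wild type replicate 3, 6.2% in knockout replicate 6 and no more than 1.51% elsewhere. Xist was at or near 0 counts in knockout replicates 5 and 6 and at 1568 CPM or more in the other 4 libraries, so that the sexes read from Xist were not balanced between the groups.

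The 35 genes spanned a wide range of levels. Per kilobase of exon, 13 genes had a mean of at least 10 CPM and 9 had a mean under 1 CPM. Apoe, which encodes the lipoprotein that carries cholesterol between brain cells, was the most abundant, at 602 ± 219 CPM per kilobase (SD over 6 libraries). Ftl1, the light chain of the iron store ferritin, followed at 359 ± 119 CPM per kilobase. The ranges of these 2 genes over the libraries overlapped, while within every library Apoe was the higher per kilobase. Cd9, a tetraspanin, and Lyz2, the macrophage lysozyme, had 83.5 and 67.8 CPM per kilobase. Fth1, the ferritin heavy chain, and Cd83, a membrane protein of activated antigen-presenting cells, had 64.8 and 63.9. The SDs of these genes were 20.6 to 32.8. They hold swings between libraries that the genes share, so they do not settle the order. Per kilobase, Cd9 was above Fth1 in every library. Timp2, an inhibitor of matrix metalloproteases, had 45.7 ± 9.4 and Hif1a, the oxygen-regulated subunit of hypoxia-inducible factor, 25.7 ± 4.07 CPM per kilobase. For scale, Csf1r had 1492 ± 277 CPM per kilobase, P2ry12 1530 ± 353 and Trem2 136 ± 29.1.

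Several genes often used to mark the disease-associated state were below the middle of this order, while Apoe, Cd9 and Lyz2 were near its top. Spp1 (osteopontin) had 2.43 ± 1.35 CPM per kilobase, Cst7 (cystatin F, an inhibitor of lysosomal proteases) 3.52 ± 1.35, Clec7a (the beta-glucan receptor Dectin-1, annotated as a polymorphic pseudogene in the GENCODE release used) 3.86 ± 1.54 and Lpl (lipoprotein lipase) 1.42 ± 0.579 (SD over 6 libraries). Gpnmb, a glycoprotein of lysosomes and the cell surface, was covered by 10, 5 and 2 reads in wild type, against 11, 3 and 25 in knockout. Lgals3 (galectin-3) had 6, 5 and 1 reads, against 7, 7 and 13. Apoc1, Ch25h, which makes 25-hydroxycholesterol, Mmp12, a macrophage elastase, and Baiap2l2 were as sparse, with between 0 and 20 counts in any library. The 0 belongs to Ch25h in wild type replicate 4, where up to 0.181 CPM, before TMM scaling, is compatible with a count of 0. These 6 genes stayed below the expression filter and were not tested, which left 29 of the 35.

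**Figure D1:**
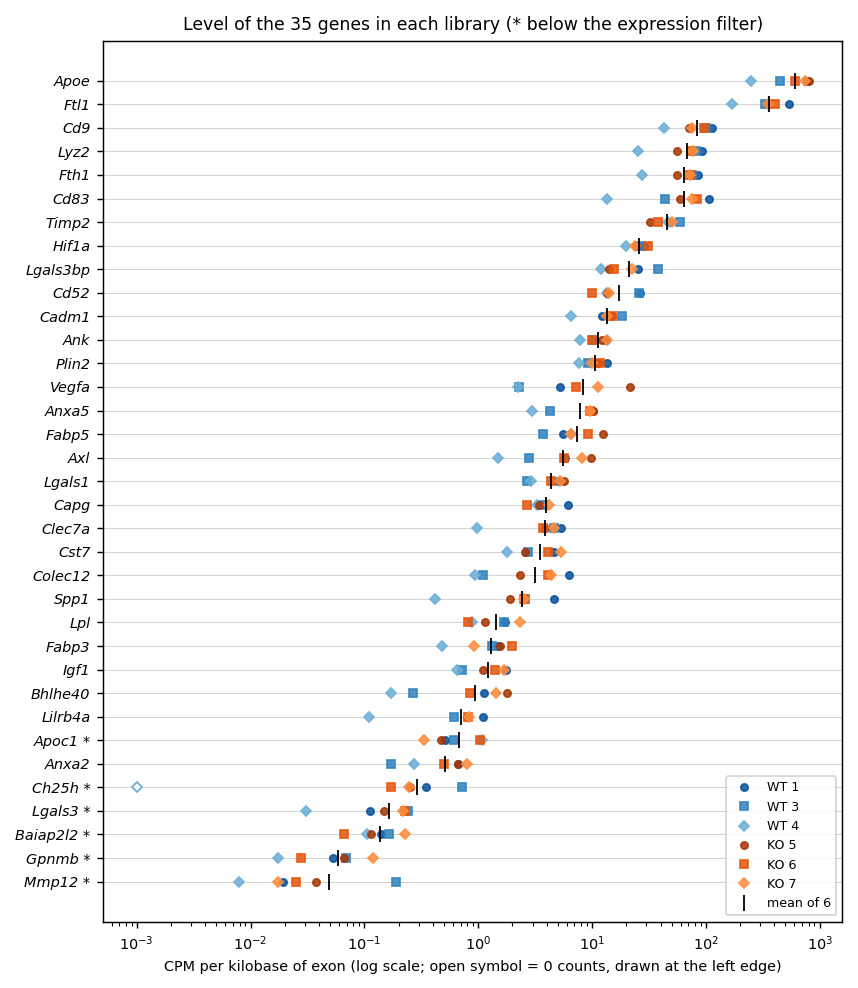
Level of each of the 35 genes in each library, in CPM per kilobase of exon on a log axis, with genes ordered by the mean of 6 libraries (black tick), wild type (WT) in blue and Gtf2ird1 knockout (KO) in orange. Apoe and Ftl1 lie at the top at 602 and 359 CPM per kilobase, the 6 genes marked with an asterisk stayed below the expression filter, and wild type replicate 4 (light blue diamond) is the lowest point for most genes.

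Some of these values share reads with other loci. Of the distinct stretches of 50 bases in the transcripts of Ftl1, 48.2% also occur in another gene, mainly Ftl1-ps1, and the share was 29.2% for Fabp3 (Fabp3-ps1), 26.1% for Lilrb4a (Lilr4b) and 15.4% for Lyz2 (Lyz1). Exons of the annotated gene Gm49339 cover 35.3% of the exons of Lilrb4a on the same strand, those of Gm42793 cover 18.8% of the exons of Spp1 on the same strand, and a transcript on the opposite strand covers 26.5% of those of Ftl1. The levels of Ftl1, Fabp3, Lilrb4a, Lyz2 and Spp1 are therefore uncertain as levels of the named gene alone. Outside Ftl1, Fabp3, Lilrb4a and Lyz2 shared stretches of 50 bases made up 5.92% or less.

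None of the 29 tested genes passed an adjusted p of 0.05 between the groups by the quasi-likelihood test of edgeR, where 0.00581% of all 17221 tested genes did, a single gene. An unadjusted p under 0.05 was reached by 4 of the 29 and by 7.25% of all genes: Vegfa, Fabp5 and Axl were higher and Cd52 was lower, each at adjusted p = 0.637 by edgeR. Among all genes 4.48% were higher and 2.77% lower at that level. Of the 29 log2 fold changes (knockout over wild type) 22 were positive and 7 negative, with a median of 0.22 and quartiles of 0.05 and 0.51, beside a median of -0.03 and quartiles of -0.23 and 0.26 over all tested genes, of which 46.2% were positive. The 95% interval spanned 0 for 25 of the 29. With scaling by library totals alone 25 were positive and 4 negative, and the medians of the members and of all genes were 0.42 and 0.11. The split rested on wild type replicate 4: without it 13 log2 fold changes were positive and 18 negative over 31 tested genes, with a median of -0.07. Markers of other brain cells lay higher still. Positive values were found for 10 of 10 astrocyte markers (median 1.80), 10 of 10 oligodendrocyte and myelin markers (1.21), 7 of 7 oligodendrocyte precursor markers (1.22), 7 of 7 tested mural and fibroblast markers (1.32) and 7 of 8 endothelial markers (0.71), with none called by edgeR. The part of these cells in the members' values was not tested.

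**Figure D2:**
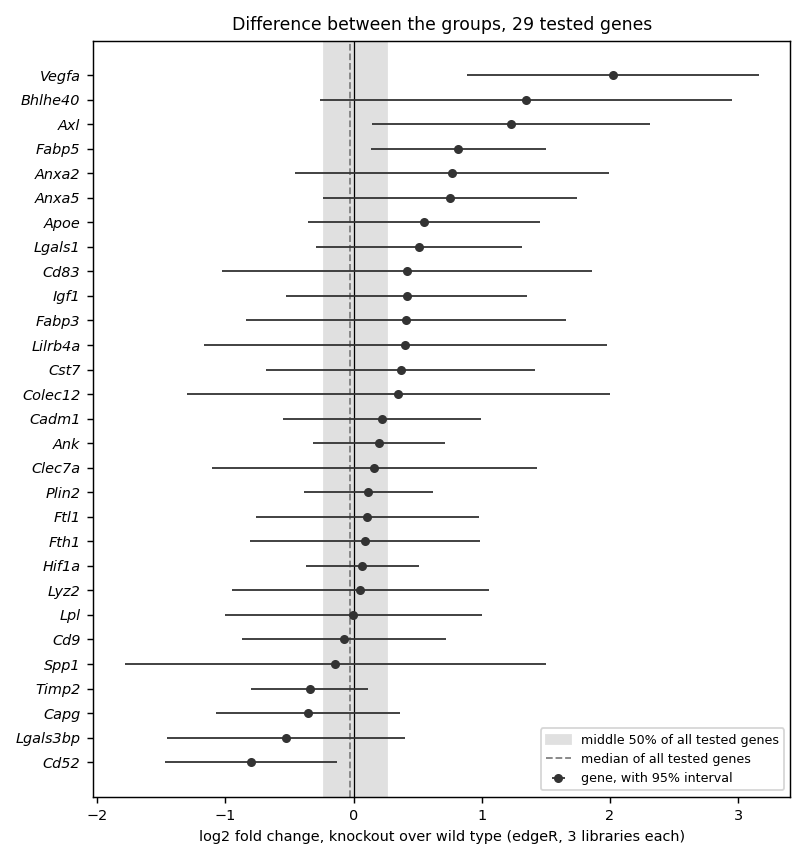
log2 fold change of knockout over wild type for the 29 tested genes (points) with 95% intervals (bars) from edgeR, 3 libraries per group, beside the median (dashed line) and the middle 50% (grey band) of all 17221 tested genes. Vegfa is farthest from 0 at 2.02, and the intervals of 25 genes span 0.

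Among the secreted ligands, Vegfa, the vascular endothelial growth factor that HIF-1 induces in low oxygen, showed the largest difference. The gene (ENSMUSG00000023951.17) spans positions 46016993 to 46032369 of chromosome 17 (GRCm38, minus strand). Its wild type libraries held 22.5, 9.88 and 9.64 CPM, against 92.6, 31.1 and 48.4 CPM in knockout. Every library labelled knockout was above every wild type library, which held for no other of the 29 genes and for 6.34% of all tested genes in this direction. No member lay lower in every knockout library, which held for 6.68% of all tested genes. The log2 fold change was 2.02 ± 0.49 (SE), at adjusted p = 0.637 by edgeR, and the fold had a 95% interval of 1.85 to 8.94. DESeq2 called it (adjusted p = 0.0277), at 0.122% of all genes called by that test. Astrocyte markers took nearly the same order of libraries. Their summed level was 3586, 605.3 and 282 CPM in wild type, against 6261, 3508 and 3910 CPM in knockout, and astrocytes are a known source of Vegfa. An unadjusted p under 0.05 was found for 4 of the 10 markers, and Aqp4, Gfap and Aldh1l1 were detected in every library. Their part in the difference was not tested, and in RNA from mixed cells fewer cells of a type and less RNA per cell cannot be told apart.

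Igf1, the insulin-like growth factor that microglia supply to neurons and oligodendrocytes, had 17.3, 7.16 and 6.51 CPM in wild type, against 10.9, 14.02 and 16.6 CPM in knockout. The groups overlapped, and the log2 fold change was 0.41 ± 0.40 (SE), with adjusted p = 0.751 by edgeR. Spp1 had 7.59, 4.26 and 0.685 CPM, against 3.13, 4.19 and 4.12 CPM, and a log2 fold change of -0.14 ± 0.70 (SE), at adjusted p = 0.953 by edgeR. That sign turned without wild type replicate 1 (0.67), with limma-voom (0.31) and with library totals (0.02). Wild type replicates 1 and 4 were its highest and lowest libraries, 11.1-fold apart, while the knockout libraries stayed within 1.34-fold of each other.

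The surface receptors and membrane proteins held members that went either way. Axl, a TAM receptor tyrosine kinase that binds phosphatidylserine on dying cells through the bridging ligand GAS6, had 29.02, 14.05 and 7.48 CPM in wild type, against 49.5, 28.5 and 40.9 CPM in knockout. Knockout replicate 6 lay just below wild type replicate 1, so the groups overlapped. Its log2 fold change was 1.23 ± 0.46 (SE), with adjusted p = 0.637 by edgeR. Its libraries took the order of the summed astrocyte markers given above, and the part of astrocytes in this value was not tested either. Cd52, a small glycosylphosphatidylinositol-anchored protein of leukocytes, was the tested member with the lowest log2 fold change. It had 31.4, 30.5 and 15.98 CPM in wild type, against 15.95, 11.8 and 16.9 CPM in knockout, a log2 fold change of -0.80 ± 0.29 (SE), at adjusted p = 0.637 by edgeR. Wild type replicate 4 lay inside the knockout range.

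Cd83 had 275.7, 111.6 and 34.98 CPM in wild type, a 7.88-fold range, and 153.2, 216.3 and 194.4 CPM in knockout. Cd9 had 233.5, 203.5 and 88.0 CPM, against 146.8, 198.2 and 154.5 CPM. Neither differed beyond the spread of the wild type libraries (edgeR adjusted p = 0.843 and 0.952). Clec7a had 14.2, 12.1 and 2.57 CPM, against 10.1, 9.83 and 12.3 CPM, so that its lowest library by far was wild type replicate 4. Lilrb4a, an inhibitory receptor, had 5.78, 3.17 and 0.571 CPM in wild type, against 4.14, 4.25 and 4.34 CPM in knockout. Colec12, a scavenger receptor with a collagen-like stalk, had 55.1, 9.61 and 8.22 CPM in wild type, against 20.2, 35.5 and 38.1 CPM in knockout, where wild type replicate 1 was the highest library and replicates 3 and 4 the lowest. The adhesion molecule Cadm1 and the pyrophosphate transporter Ank had log2 fold changes of 0.22 ± 0.33 and 0.20 ± 0.22 (SE), with adjusted p = 0.845 and 0.781 by edgeR.

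Of the lipid and sterol genes, 5 of 7 were tested and none passed. Apoe had 1655, 949.6 and 529.3 CPM in wild type, against 1716, 1292 and 1576 CPM in knockout, with means of 1045 ± 569 and 1528 ± 216 CPM (SD, n = 3 each). Wild type replicate 1 lay within the knockout range, and the log2 fold change was 0.55 ± 0.39 (SE), with adjusted p = 0.683 by edgeR. Astrocytes also make much of the Apoe of the brain, and their markers are given above. Fabp5, a fatty acid carrier, had 19.9, 13.3 and 23.3 CPM in wild type, against 44.2, 32.6 and 23.1 CPM in knockout. Knockout replicates 5 and 6 were above all wild type libraries and replicate 7 was not, at a log2 fold change of 0.82 ± 0.29 (SE), with adjusted p = 0.637 by edgeR. With a covariate for the level of Xist, which separates knockout replicates 5 and 6 from the other libraries, this fell to 0.29. No wild type library was low in Xist, so that fit set knockout replicate 7 alone against wild type. The values under the covariate therefore rest on that library and are not a comparison of the groups. Under the same covariate Fabp3 went from 0.41 to -0.27, Lpl from -0.002 to 0.69, Timp2 from -0.34 to -0.02, Lgals3bp from -0.53 to -0.15 and Cst7 from 0.37 to 0.78. Plin2, the coat protein of lipid droplets, had 35.5 ± 10.5 and 38.6 ± 2.89 CPM (SD, n = 3 each), Lpl 15.0 ± 4.91 and 14.9 ± 8.24 CPM, and Fabp3 0.902 ± 0.44 and 1.22 ± 0.438 CPM. Their adjusted p by edgeR was 0.875, 0.999 and 0.817.

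The ferritin subunits store iron. Ftl1 had 717.6, 444.3 and 227.2 CPM in wild type, against 474.8, 546.6 and 473.8 CPM in knockout. Fth1 had 295.7, 261.8 and 95.4 CPM, against 193.9, 250.3 and 251.4 CPM. For both the knockout libraries fell between wild type replicates 1 and 4, and the log2 fold changes were 0.11 ± 0.37 and 0.09 ± 0.38 (SE), with adjusted p = 0.933 and 0.946 by edgeR. Without wild type replicate 4 both turned negative, at -0.22 and -0.26.

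Among lysosomal and secreted enzymes and inhibitors, Lyz2 had 121.2, 108.4 and 33.4 CPM in wild type, against 73.0, 98.4 and 101.0 CPM in knockout (log2 fold change 0.05 with an SE of 0.43; adjusted p = 0.974 by edgeR). Timp2 had 185.8, 230.3 and 181.1 CPM, against 125.9, 148.6 and 196.1 CPM. It was one of few members for which wild type replicate 4 was not low, and its log2 fold change was -0.34 ± 0.20 (SE), with adjusted p = 0.646 by edgeR. Cst7 had 4.56, 2.72 and 1.77 CPM, against 2.54, 4.01 and 5.22 CPM, with overlapping groups.

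Galectin-1, encoded by Lgals1, had 4.52, 2.45 and 2.63 CPM in wild type, against 5.16, 3.95 and 4.69 CPM in knockout, and only knockout replicate 6 lay within the wild type range (log2 fold change 0.51 with an SE of 0.34; adjusted p = 0.673 by edgeR). Lgals3bp, a secreted galectin ligand, had 72.3, 108.7 and 34.01 CPM, against 39.99, 44.4 and 64.3 CPM, with overlapping groups. Annexins bind phosphatidylserine in a calcium-dependent way. Anxa5 had 17.99, 7.52 and 5.31 CPM in wild type, against 18.3, 17.0 and 17.1 CPM in knockout, so that the knockout libraries lay within 1.07-fold of each other and close to wild type replicate 1 (log2 fold change 0.75 with an SE of 0.42; adjusted p = 0.642 by edgeR). Anxa2 had 1.38 ± 0.967 and 2.43 ± 0.556 CPM, and the actin-capping gene Capg 11.1 ± 3.89 and 8.67 ± 1.83 CPM (SD, n = 3 each).

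Both transcription factors act in the response to low oxygen. Hif1a was among the steadiest members, at 169.8, 158.0 and 116.5 CPM in wild type, against 143.1, 183.9 and 139.3 CPM in knockout (log2 fold change 0.07 with an SE of 0.19; adjusted p = 0.916 by edgeR). Bhlhe40, a basic helix-loop-helix repressor, had 5.25, 1.27 and 0.799 CPM, against 8.48, 4.01 and 6.69 CPM. Knockout replicate 6 lay below wild type replicate 1, and the log2 fold change was 1.34 ± 0.69 (SE), with adjusted p = 0.637 by edgeR.

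The members varied more among wild type than among knockout libraries, and this was not particular to them. Over 16249 to 18175 genes per pair of replicates, chi-square per degree of freedom was 160.9 to 351.1 in wild type. In knockout it was 54.89 to 105. The share of all genes with the wider range in wild type is not given here. Over the 29 tested genes the highest wild type library exceeded the lowest by a median of 3.05 times, against 1.41 times among knockout libraries, and 25 genes had the wider range in wild type, the exceptions being Lpl, Fabp5, Timp2 and Vegfa. Wild type replicate 4 was the lowest library for 22 of the 29 genes (75.9%), against 25.6% of all tested genes, and wild type replicate 1 was the highest for 13 (44.8%), against 16.4%. For 13 genes wild type replicates 3 and 4 were both below the other 4 libraries, which was so for 15.9% of all tested genes, 10 of 10 astrocyte markers and 0 of 18 homeostatic markers. All 10 astrocyte markers were lowest in wild type replicate 4, and 10 of 18 homeostatic markers (55.6%) were highest in wild type replicate 1. The 13 genes were Apoe, Plin2, Axl, Lilrb4a, Cd83, Colec12, Igf1, Vegfa, Lgals1, Ftl1, Anxa2, Anxa5 and Bhlhe40.

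**Figure D3:**
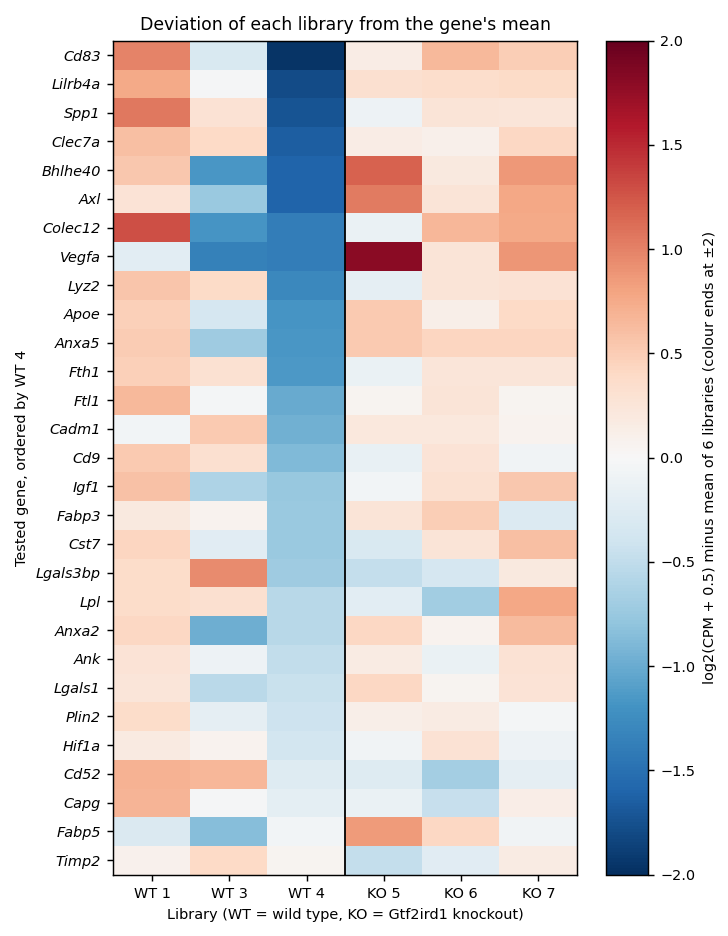
Deviation of each library from the mean of the 6 libraries, as log2(CPM + 0.5), for the 29 tested genes ordered by wild type replicate 4, with red above and blue below the mean. Wild type replicate 4 (WT 4) is blue for nearly all genes and is the lowest library for 22 of the 29, while wild type replicate 1 is the highest for 13.

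Several other measures set wild type replicate 4 apart. The 14 genes that respond to cell isolation, such as Fos, an immediate early transcription factor, summed to 1529 CPM there, against 3905 to 6021 CPM in the other libraries. Fos itself had 624.7, 166.9 and 72.4 CPM in wild type, against 539.5, 517.6 and 488.5 CPM in knockout. Protein-coding genes with under 1500 exon bases had a median deviation of -0.32 on the log2 scale in wild type replicate 4, and those with over 6000 bases 0.09. Members deviated by -0.74 (6 genes) and -0.86 (4 genes) in the same length classes, too few genes to compare the classes. The part of these measures in the members' levels was not tested.

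For 26 of the 29 tested members, all but Cadm1, Fabp5 and Timp2, the log2 fold change was higher without wild type replicate 1 and lower without wild type replicate 4 than with all libraries. These shifts follow from replicate 1 lying high and replicate 4 low among the wild type libraries, so they are not a separate result. Without wild type replicate 1, 3 of 30 tested members passed as higher by edgeR, against 1.77% of all genes in that direction, and none as lower, against 0.0866%. They were Colec12 (log2 fold change 1.81, adjusted p = 0.0464), Anxa5 (1.45, adjusted p = 0.0414) and Bhlhe40 (2.66, adjusted p = 0.0487), and Vegfa had an edgeR adjusted p of 0.0501 at 2.56. The same setting called higher 7 of 10 astrocyte, 5 of 10 oligodendrocyte and myelin, 3 of 7 mural and fibroblast, 3 of 10 border macrophage and 4 of 14 cell isolation genes, and 0 of 18 homeostatic markers. The part of these in the member calls was not tested. In that setting 11 of 30 members and 18.6% of all genes had an unadjusted p under 0.05, and the member median was 0.62. Without wild type replicate 4 the counts were 5 of 31 members and 17.2% of all genes, no member passed, against 0.0167% of all genes, and Colec12 stood at -0.07 and Cd83 at -0.05. The log2 fold changes of Vegfa, Bhlhe40, Axl and Fabp5 stayed positive when any 1 wild type library was left out, at 1.81 to 2.56, 0.91 to 2.66, 0.87 to 1.89 and 0.63 to 0.998, and that of Cd52 stayed negative, at -1.05 to -0.64. No member passed by edgeR without wild type replicate 3 (0.00552% of all genes passed), knockout replicate 5 (0.00585%), 6 (0.00553%) or 7 (0.0348%). The same held without a filter (0.0163% of all genes), with at least 1 CPM in 3 libraries (0.00642%), without ribosomal, small RNA and haemoglobin genes (0.00592%) and with the Xist covariate (0.0116%).

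**Figure D4:**
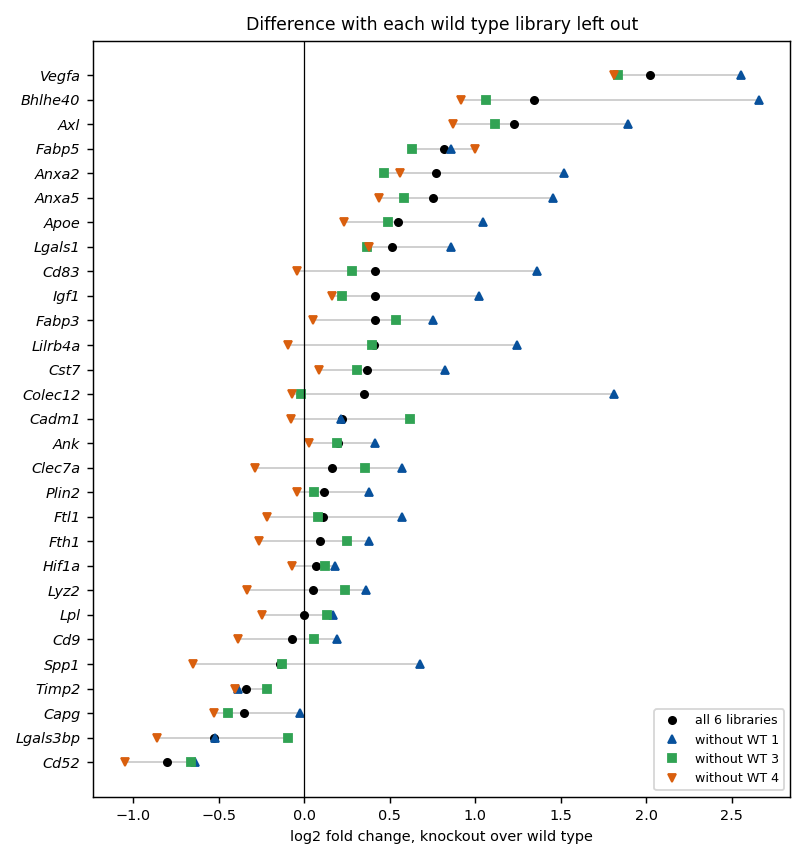
log2 fold change of knockout over wild type for the 29 tested genes with all 6 libraries (black circles) and with wild type replicate 1, 3 or 4 left out (blue, green and orange symbols). Leaving out wild type replicate 1 moved most genes up and leaving out replicate 4 moved most genes down, with Colec12 at 1.81 and -0.07.

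Promoter sequence is shown for 4 members whose level was low in wild type replicates 3 and 4, as the 250 bases before the RefSeq start in GRCm38.p6, written 5′ to 3′ on the strand of the gene. Capitals mark matches on either strand to ACGTG, the core of the hypoxia response element, or GAGGAA, the core bound by the macrophage factor PU.1. The 4 are examples and not all such genes. Of the others that had a window, Igf1 and Anxa2 also held a match, and Plin2 and Ftl1 held none. For Vegfa (minus strand, the more upstream of its RefSeq starts) the window is chr17:46032378-46032627, for Axl (minus) chr7:25788734-25788983, for Apoe (minus, the most upstream start) chr7:19699189-19699438, and for Anxa5 (minus) chr3:36475888-36476137.
Vegfa: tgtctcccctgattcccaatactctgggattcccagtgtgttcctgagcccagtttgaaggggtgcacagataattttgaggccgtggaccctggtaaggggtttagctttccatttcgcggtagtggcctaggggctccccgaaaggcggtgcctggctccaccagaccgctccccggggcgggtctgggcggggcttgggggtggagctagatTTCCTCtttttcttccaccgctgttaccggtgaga
Axl: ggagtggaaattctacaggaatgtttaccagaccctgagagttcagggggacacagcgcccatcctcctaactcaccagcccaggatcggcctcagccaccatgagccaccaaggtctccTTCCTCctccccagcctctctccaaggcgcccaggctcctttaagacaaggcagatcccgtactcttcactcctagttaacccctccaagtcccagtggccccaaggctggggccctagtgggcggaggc
Apoe: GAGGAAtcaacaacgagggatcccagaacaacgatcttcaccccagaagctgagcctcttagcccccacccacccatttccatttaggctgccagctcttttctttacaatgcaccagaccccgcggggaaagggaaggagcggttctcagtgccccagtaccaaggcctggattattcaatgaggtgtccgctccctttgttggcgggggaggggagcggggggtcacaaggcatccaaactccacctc
Anxa5: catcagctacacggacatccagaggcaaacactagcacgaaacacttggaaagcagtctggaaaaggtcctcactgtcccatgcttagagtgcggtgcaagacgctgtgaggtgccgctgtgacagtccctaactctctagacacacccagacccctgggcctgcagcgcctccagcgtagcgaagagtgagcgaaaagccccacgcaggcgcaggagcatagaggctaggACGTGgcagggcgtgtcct

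RefSeq promoters were matched for 24 of the 35 genes, with 31 starts. GAGGAA was found in 10 of the 31 windows (32.3%), against 23.3% of 32851 promoter windows of that length in mouse. ACGTG was found in 4 of 31 (12.9%) against 16.6%, among them Hif1a, Anxa2, Anxa5 and a second start of Vegfa. CACGTG, the E-box of lysosomal genes, which contains ACGTG, was found in 1 of 31 (3.23%, Hif1a) against 6.02%, and the AP-1 site TGANTCA in 3 of 31 (9.68%) against 6.75%. A match describes these letters in the window and does not show binding.

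Other genes of the disease-associated programme had a median below 0 with all libraries, which turned in some settings. Of 30 further genes 27 were tested, and 0 passed in either direction by edgeR, with 1 at an unadjusted p under 0.05 and none called by DESeq2. There were 7 positive and 20 negative log2 fold changes with a median of -0.15. With scaling by library totals 15 were positive and 12 negative (median 0.01), without wild type replicate 1 the counts were 16 and 11 (0.10), and without wild type replicate 4 they were 4 and 24 (-0.38). Trem2 had 857.0, 821.7 and 499.0 CPM in wild type, against 548.9, 659.7 and 633.6 CPM in knockout (log2 fold change -0.24 with an SE of 0.23; adjusted p = 0.748 by edgeR). Tyrobp had 629.5, 488.4 and 279.1 CPM, against 395.8, 479.9 and 405.9 CPM, with overlapping groups as well. The gene with the smallest p was Syngr1, a vesicle protein, at -0.35 (edgeR adjusted p = 0.637). Like the members, 22 of these 27 genes had their lowest level in wild type replicate 4.

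All 18 homeostatic markers had negative log2 fold changes, with a median of -0.30, and 13 of 18 were negative with scaling by library totals, a setting that moved the median of all genes from -0.03 to 0.11. None passed by edgeR or DESeq2, and 1 (Crybb1, at -0.42, edgeR adjusted p = 0.637) had an unadjusted p under 0.05. Set against the homeostatic sum of the same library, the 35 genes together came to 6.94%, 5.14% and 4.27% in wild type, against 9.23%, 6.91% and 8.35% in knockout. Apoe alone made up 31.8% to 47.4% of the summed members. Without it the shares were 4.22%, 3.51% and 2.83% in wild type and 4.85%, 4.31% and 4.75% in knockout. The libraries in which this share was low were also those with the fewest astrocyte and myelin transcripts, and the part of those cells was not tested.

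A further list of 8 genes held regulators (LXR and RXR receptors, the MITF and TFE factors) and the LXR targets Abca1 and Abcg1. All 8 had negative log2 fold changes, with a median of -0.36, and 7 of 8 did with scaling by library totals. None passed by edgeR or DESeq2 and none had an unadjusted p under 0.05. Markers of other phagocytes were also followed. The 10 border macrophage markers summed to between 1647 and 2548 CPM and 0 passed by edgeR or DESeq2, with 0 at an unadjusted p under 0.05. Leaving out wild type replicate 1 made 3 of the 10 pass as higher by edgeR, and their median log2 fold change moved from 0.245 to 1.009. Mrc1, the mannose receptor, had 657.5, 208.9 and 268.3 CPM in wild type, against 385.5, 413.6 and 466.7 CPM in knockout. Monocyte and neutrophil markers summed to between 3.48 and 8.62 CPM over 10 genes. Ly6g was at 0 in every library, and Ccr2, the monocyte chemokine receptor, made up most of that sum, at 2.1 to 8.03 CPM.

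**Figure D5:**
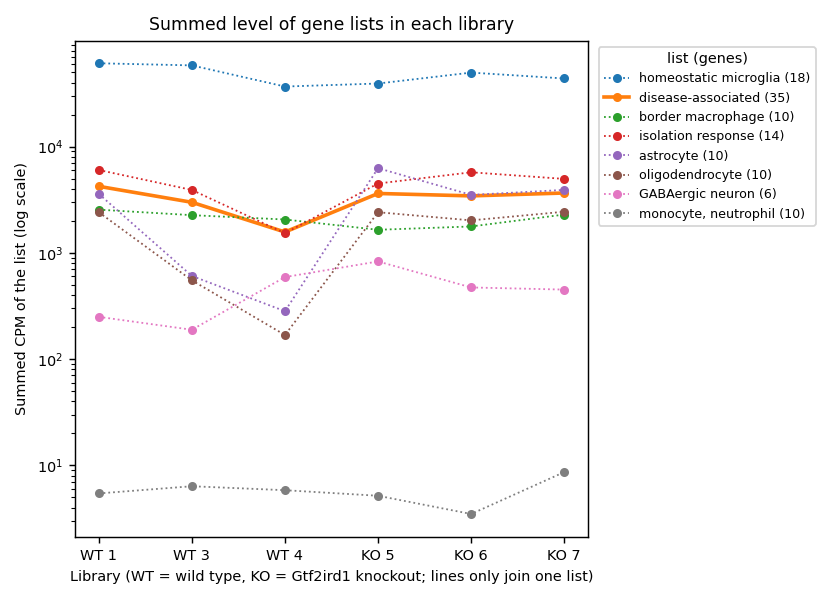
Summed CPM of gene lists in each library on a log axis, for the 35 disease-associated genes (thick line), homeostatic microglia markers and markers of other cells and of cell isolation. The homeostatic sum lies between 36750 and 60860 CPM, the disease-associated genes between 1569 and 4225 CPM with the lowest value in wild type replicate 4, and astrocyte and oligodendrocyte markers are lowest in wild type replicates 3 and 4.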

How the data were processed

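RNA was measured in 6 libraries of cerebral cortex, for which the labels' protocols name a column kit for RNA and a kit for stranded total RNA. The authors deposited whole-number read counts for each gene, with no scaling and 1 file per library. The submitters' processing notes list Trim Galore 0.60, STAR 2.7, HTSeq 1.31 and mm10. The annotation release, strand setting and rule for reads with several alignments are not stated in the sources used here. The 5 summary lines of each file name no gene, held 42.3% to 72.1% of all reads, and stayed out of totals and tests. Identifiers were matched to GENCODE M21 (GRCm38), with 53274 of 53379 matched, and exon lengths are the union of its exons.

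The comparison of groups used edgeR 4.0.16 (R 4.3.3) and its quasi-likelihood test with TMM scaling, the default expression filter, robust shrinkage and Benjamini-Hochberg adjustment over all 17221 tested genes (two-sided, threshold 0.05), which was checked on simulated data. Alternatives used DESeq2 1.42.0, limma 3.58.1 (voom), other scalings and filters, removal of ribosomal, small RNA and haemoglobin genes, and leaving out libraries. A covariate for Xist (above or below 100 CPM) was chosen after seeing the data. Its group term compared knockout replicate 7 alone with wild type. The counts of genes and members passing under it therefore rest on that library and are not a comparison of the groups. Libraries of a group differed beyond sampling noise (chi-square per degree of freedom of at least 54.9), and each counted as 1 sample.

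The members and gene lists were chosen with earlier results of these data known. Values per library are given for the 8 members with the smallest p, the 8 with the highest level per kilobase and any called in some setting. Other members shown per library, and Fos, Mrc1, Ccr2 and Ly6g, were chosen after their values were seen. Dlx6os1 matched 2 identifiers and was left out.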

Additional observations from a re-analysis of the deposited data

How the results depend on the processing

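By edgeR 1 of all tested genes passed with all 6 libraries. The count was 21 with DESeq2, 5 without a filter on low counts, 2 with the Xist covariate (chosen after seeing the data), 0 without wild type replicate 3 and knockout replicate 6 together, and from 1 to 321 when each library was left out in turn. Members called were 0 with all libraries, 1 (Vegfa) with DESeq2, and from 0 to 3 when each library was left out, the 3 being Colec12, Anxa5 and Bhlhe40 without wild type replicate 1. The member median of 0.22 ran from -0.07 to 0.62 when each library was left out, and from 0.21 to 0.42 under the other scalings, tests and filters. Gtf2ird1 did not pass and stayed positive in every setting run.

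Of the 29 tested members 14 changed the sign of their log2 fold change in some setting. Beside the genes below, Spp1, Clec7a, Lilrb4a, Cadm1, Plin2, Fabp3 and Lpl did so. Fabp3 turned only with the Xist covariate (-0.269), a fit that does not compare the groups. Without wild type replicate 4, for example, Clec7a was at -0.29, Lilrb4a at -0.097, Cadm1 at -0.08 and Plin2 at -0.046. Leaving out wild type replicate 1 instead, Cd83 was at 1.361, Colec12 at 1.812, Fth1 at 0.377, Ftl1 at 0.569, Hif1a at 0.179 and Lyz2 at 0.36, and Cd9 was at -0.39 without wild type replicate 4. In that last setting the log2 fold changes of Cd83, Colec12, Fth1, Ftl1, Hif1a and Lyz2 were -0.046, -0.074, -0.264, -0.219, -0.074 and -0.337. Without wild type replicate 3 and knockout replicate 6 together those of Colec12, Ftl1 and Hif1a were -0.139, -0.007 and -0.025. Colec12 was at -0.02 without wild type replicate 3, Hif1a at -0.063 and Lyz2 at -0.008 without knockout replicate 6, Lyz2 at -0.021 without knockout replicate 7, and Hif1a at -0.088 with the Xist covariate. Cd9, at -0.07 with all libraries, was at 0.095 with library totals, 0.046 with limma-voom, and 0.192, 0.053 and 0.012 without wild type replicate 1, wild type replicate 3 and knockout replicate 5. The cause of these changes was not tested. No paired analysis was possible because the groups share no replicate number. The 6 genes below the filter had at most 25 counts in any library, and this depth limits any comparison of them.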
